A study of Mus musculus with 8 samples.

Results

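Basement membranes are thin sheets of extracellular matrix that underlie endothelium and epithelium and wrap pericytes, muscle, fat and Schwann cells. The 31 genes described here encode their parts: type IV collagen and laminin chains, nidogens, heparan sulfate proteoglycans, related collagens, a crosslinking enzyme, 2 receptors and smaller matrix proteins. They were chosen by name from these families. No rule on measured values was used, but earlier results of these data were known. They are 31 of 35975 genes to which transcript estimates were summed. Of these, 23 had enough counts for the test across 13343 genes, and 8 did not.

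The samples came from syngeneic fibrosarcomas grown under the skin of WT C57BL/6 mice, digested with collagenase B and DNase I and stripped of red cells. Magnetic columns then split each cell suspension into an iron-positive eluate, retained by the magnet, and an iron-negative flowthrough. Bulk RNA-seq was done on 4 libraries of each fraction, carrying the tags 3L, 3R, 4R and 5L, with 19036520 to 24306607 estimated counts each. All groups share the wild-type genotype, no treatment is recorded, and the labels name neither the tumour line, the age or sex of the mice, nor what a tag stands for. No label records an antibody sort, so the labels do not say which cells each fraction holds. Of the 8 lists of cell type markers given below, the macrophage list had by far the highest summed level in both fractions. Nothing in the labels says that the 4 libraries of a fraction came from separate animals, so p-values measure only the spread between these libraries, which may be technical.

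Laminin heterotrimers of an alpha, a beta and a gamma chain polymerise on the cell surface, held there by integrins and dystroglycan. Type IV collagen trimers form a second network, and nidogens and the heparan sulfate proteoglycans perlecan and agrin bind both networks. In blood vessels the usual collagen is the trimer of the Col4a1 and Col4a2 chains, and the usual laminins contain alpha 4 or alpha 5 with beta 1 or beta 2 and gamma 1. The comparison between the fractions asks which of these chains and partners differ between cells that a magnet retains and cells that it does not.

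Levels below are in CPM, estimated counts per 1000000 counts of the TMM-scaled library total. A gene was called when its adjusted p was under 0.05 in edgeR's quasi-likelihood test with Benjamini-Hochberg adjustment over all 13343 genes. Of the 23 basement membrane genes in the test, 15 were called higher in the iron-positive fraction, where 8.49% of all genes tested were called higher. None of the 23 was called lower, where 5.21% of all genes were, and none was lower at an unadjusted p under 0.05, while 20 were higher at that level. DESeq2, run on 21853 genes with no such filter, called 21 of 31 higher and none lower, beside 8.95% and 4.8% of all its genes. The median log2 fold change was 3.42 over the 23 genes and -0.006 over all genes tested. A gene low in the flowthrough could pass the filter on low counts only through the eluate. Lama3, Lama5, Bcam, Col4a5, Lamb3 and Egfl7 did so. The counts of calls therefore describe the 23 genes and not the whole set. In bulk RNA, more cells of a type in a fraction and more RNA per cell cannot be told apart.

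**Figure D1:**
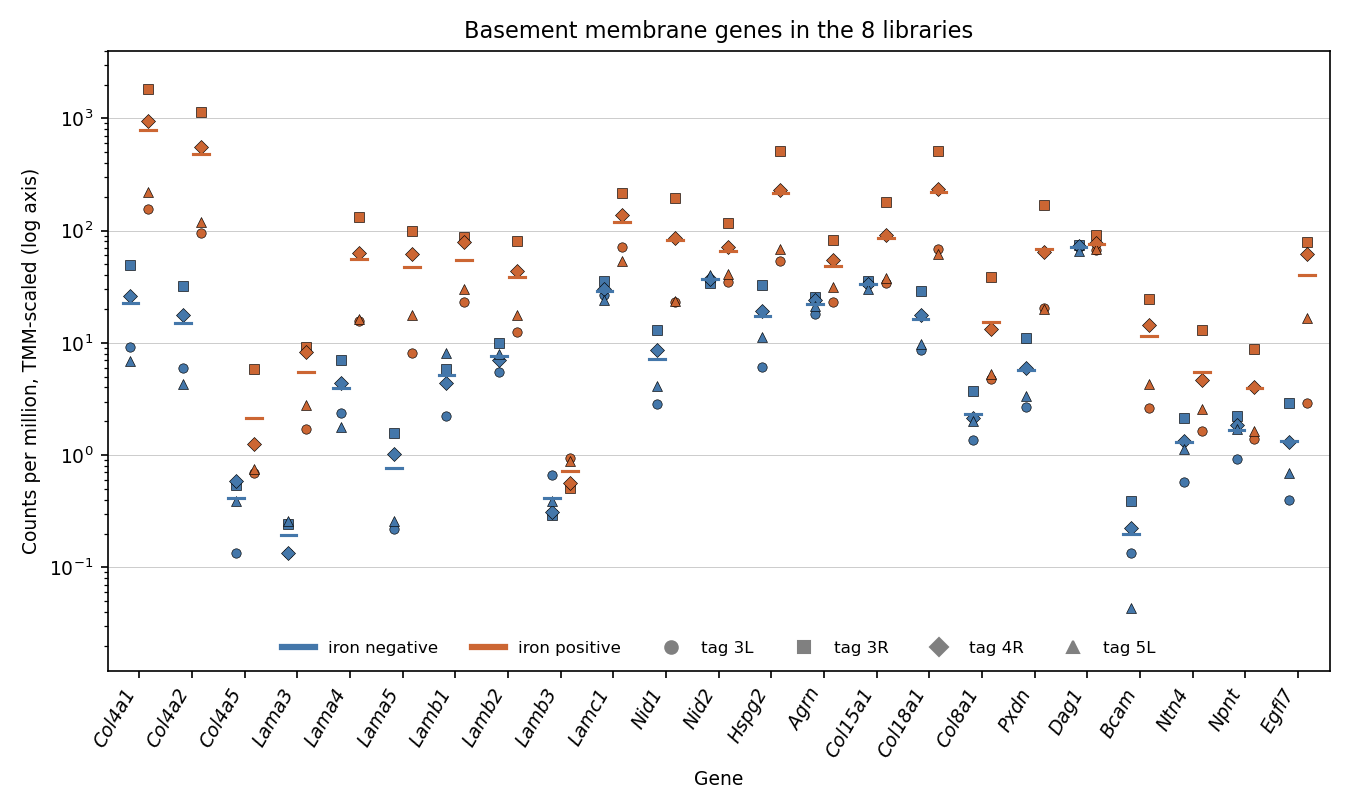
Level of each of the 23 genes in the test, in TMM-scaled CPM on a log axis, for 4 iron-negative (blue) and 4 iron-positive (orange) libraries; marker shapes are the tags and bars the group means. Col4a1 and Col4a2 stand highest in the iron-positive fraction, and the points of Dag1 nearly coincide.

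Sequence context is shown for 4 of the genes called higher. Col4a1 (chr8:11198423-11312826, minus strand) and Col4a2 (chr8:11312805-11449287, plus strand) are transcribed away from each other, and in the GENCODE annotation of GRCm38 their 5′ ends overlap by 22 bases. Those 22 bases are printed on the plus strand because the pair that rose together shares them. The sequence is from RefSeq's promoter table for GRCm38.p6. Capitals mark GGGCGG, the core of a GC box, here and below on either strand, so that CCGCCC is its reverse complement.
Col4a1/Col4a2, chr8:11312805-11312826: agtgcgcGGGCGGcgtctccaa
The other collagen IV pairs are also divergent. The 5′ ends of Col4a4 and Col4a3 on chromosome 1 are 71 bases apart, and those of Col4a6 and Col4a5 on chromosome X are 1308 bases apart.

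The next sequences are the 250 bases before the start of Lama5 (chr2:180176373-180225859, minus strand), the laminin alpha chain with the largest fold change, and 232 bases before the upstream start of Col18a1 (chr10:77052178-77166548, minus strand), the start from which nearly all its counts came. Both are written 5′ to 3′ on the strand of the gene.
Lama5, chr2:180225860-180226109: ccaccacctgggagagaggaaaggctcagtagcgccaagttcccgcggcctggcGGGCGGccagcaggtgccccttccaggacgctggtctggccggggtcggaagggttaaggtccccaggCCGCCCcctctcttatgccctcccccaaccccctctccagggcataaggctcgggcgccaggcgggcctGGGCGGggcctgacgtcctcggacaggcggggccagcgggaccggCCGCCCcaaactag
Col18a1, chr10:77166549-77166780: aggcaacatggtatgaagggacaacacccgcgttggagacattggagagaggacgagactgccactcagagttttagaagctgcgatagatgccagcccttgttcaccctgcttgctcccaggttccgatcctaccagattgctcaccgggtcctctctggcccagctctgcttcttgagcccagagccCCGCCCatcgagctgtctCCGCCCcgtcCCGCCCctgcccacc
The Lama5 stretch holds 4 matches and the Col18a1 stretch 3. The Col18a1 stretch overlaps 1 annotated exon and the Lama5 stretch 0. RefSeq's table had 31 promoter windows of 300 bases for 23 of the 31 genes. GGGCGG was found on either strand in 20 of these windows, or 64.5%, against 35.7% of all 32851 windows in the table. CCAAT was in 10 windows (32.3%, against 37.4% of all) and CCGGAA in 2 (6.45%, against 14.9%). TATAAA was in 0 of the 31 windows and in 13.6% of all windows. These are letter matches in a fixed window and not binding sites.

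Type IV collagen is the network that gives a basement membrane its tensile strength. Col4a1 was at 9.24, 49.0, 26.1 and 6.83 CPM in the iron-negative libraries of tags 3L, 3R, 4R and 5L, and at 156, 1810, 953 and 220 CPM in the iron-positive libraries in the same order. The groups did not overlap: the lowest iron-positive library was above the highest iron-negative library. Its log2 fold change was 5.11 ± 1.02 (SE, n = 4 per group, edgeR adjusted p = 0.0199), a 34.5-fold difference. Col4a2 followed library by library, at 5.92, 32.1, 17.6 and 4.26 CPM against 94.9, 1150, 555 and 120 CPM, with a log2 fold change of 5.01 ± 1.03 (adjusted p = 0.0211, edgeR).

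The minor collagen IV chains, which build the membranes of kidney glomerulus, lung and some epithelia, were scarce in both fractions. Col4a5 was at 0.133, 0.536, 0.582 and 0.391 CPM in the iron-negative libraries and 0.698, 5.85, 1.26 and 0.748 CPM in the iron-positive ones. Those groups did not overlap, but most of the rise lay in 1 library, 3R, and the log2 fold change of 2.36 ± 0.80 was not called (edgeR adjusted p = 0.0835; 0.0311 with the tag as a replicate block). Col4a3, Col4a4 and Col4a6 were not tested, having 16, 6 and 19 estimated counts over the 4 iron-negative libraries and 13, 19 and 16 over the iron-positive ones. Per kilobase of transcript, Col4a1 and Col4a2 together made up nearly the whole class: Col4a1 held 62.0% ± 1.52 (SD, n = 4) of summed collagen IV CPM per kilobase in the iron-positive libraries and 58.2% ± 1.01 in the iron-negative libraries, and Col4a2 held 37.7% ± 1.51 and 38.7% ± 1.44.

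Among the laminin alpha chains, which carry the cell-binding domains and set a laminin's type, all 3 chains in the test rose: Lama3, Lama4 and Lama5. Lama5, the alpha 5 chain of mature vessels and many epithelia, was at 0.221, 1.56, 1.03 and 0.261 CPM in the iron-negative libraries and 8.07, 99.8, 62.3 and 17.8 CPM in the iron-positive ones. With groups far apart, its log2 fold change of 5.95 ± 0.97 (adjusted p = 0.0173, edgeR) was the largest of the 23, and equals 61.9-fold. Lama4, the alpha 4 chain typical of endothelium and other mesenchymal cells, went from 2.39, 7.07, 4.43 and 1.78 CPM to 15.6, 131, 62.6 and 16.3 CPM, a log2 fold change of 3.85 ± 0.81 (adjusted p = 0.0217, edgeR). Lama3, best known from the laminin that anchors epidermis, stayed at 0.133 to 0.261 CPM in the flowthrough and reached 1.69, 9.12, 8.28 and 2.77 CPM in the eluate (log2 fold change 4.79 ± 0.66, edgeR adjusted p = 0.0172).

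The short transcript Lama3-202, which starts inside the gene, held 28.3% to 63.6% of Lama3's counts in the iron-positive libraries, and the long Lama3-201 held the rest. Lama1 and Lama2 were left out by the filter on low counts. Lama1, the alpha 1 chain of early embryos, had 0 counts in all 4 iron-negative libraries, which allows up to 0.0329 CPM over the group (3 counts, counting error only), and 0, 23, 8 and 5 counts in the iron-positive libraries. Against that floor its mean iron-positive level was at least 13.1-fold higher. Lama2, the alpha 2 chain of muscle and nerve, had 6 counts over the iron-negative libraries and 175 over the iron-positive ones. Without the filter it was called higher (edgeR adjusted p = 0.0162).

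Of the beta and gamma chains, Lamb1, Lamb2 and Lamc1 rose. Lamb1 was at 2.25, 5.85, 4.39 and 8.13 CPM in the iron-negative libraries and 23.0, 88.5, 79.3 and 30.0 CPM in the iron-positive ones (log2 fold change 3.42 ± 0.55, edgeR adjusted p = 0.0173). Lamb2 was at 5.52, 9.89, 6.99 and 7.96 CPM against 12.5, 81.1, 43.4 and 17.7 CPM (2.35 ± 0.56 on the log2 scale, edgeR adjusted p = 0.0307). Neither gene's groups overlapped, though the lowest iron-positive Lamb2 value, in 3L, was only a little above the highest iron-negative value. Lamc1, the gamma chain shared by most laminins, was already at 26.7, 35.4, 30.0 and 24.0 CPM in the flowthrough and at 71.0, 216, 139 and 53.7 CPM in the eluate, a 4.13-fold difference (log2 2.05 ± 0.41, edgeR adjusted p = 0.0202).

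Lamb3, the beta chain of the epidermal laminin, was low in both fractions, at 0.415 ± 0.171 CPM (SD, n = 4) in iron-negative and 0.725 ± 0.222 CPM in iron-positive libraries, and was not called (log2 fold change 0.79 ± 0.37, edgeR adjusted p = 0.187). It was the exception in library order, being highest in iron-positive 3L at 0.947 CPM and lowest in 3R at 0.504 CPM. A non-coding transcript of 258 bases, Lamb3-205, held 20.8% to 32.3% of its counts in the iron-negative libraries and 7.69% to 52.0% in the iron-positive ones, most in 3L. The coding Lamb3-209 had 3.26 estimated counts in iron-positive 3L and 12 in 4R, so 3L was not the highest library for that transcript. Lamc3 was not tested, with 1 count over the iron-negative and 12 over the iron-positive libraries.

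Chains can be compared with each other only per length, here as CPM per kilobase of the longest coding transcript, a scale added after the data were seen because summed TPM gives great weight to very short transcripts. On this scale Lama4 was the main alpha chain in every library, but its share of the alpha chains was 85.0% to 89.6% in the iron-negative libraries and 58.1% to 74.2% in the iron-positive ones. The Lama5 share was 4.41%, 10.3%, 10.7% and 6.6% in the iron-negative libraries and 20.4%, 27.5%, 32.3% and 33.7% in the iron-positive ones, with no overlap. No test was made, since Lama5 had under 10 estimated counts in 2 iron-negative libraries. On the TPM scale the Lama5 share was 23.9% ± 16.9 (SD, n = 4) and 29.1% ± 4.76, and the groups overlapped. There a 451-base non-coding Lama5 transcript held up to 48.1% of the gene's TPM in an iron-negative library and up to 51.4% in an iron-positive one.

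Beta chains also changed places per kilobase, the scale added after the data were seen. Lamb2 held 59.0% ± 7.15 (SD, n = 4) of the beta chain sum in the iron-negative libraries and 38.9% ± 6.32 in the iron-positive ones, while Lamb1 held 36.7% ± 9.26 and 59.5% ± 5.59. In TPM the Lamb2 share was 38.3% ± 6.10 and 35.6% ± 17.5. The ratio of Lamb2 to Lamb1 TPM was 1.34 to 3.66 in the iron-negative libraries and 0.732 to 1.57 in the iron-positive ones. These ranges overlapped through iron-positive 3R, where Lamb2 stayed above Lamb1. The difference in the log2 ratio of Lamb2 to Lamb1 TPM was -1.05 (iron-positive minus iron-negative; two-sided exact permutation test, n = 4 per group, p = 0.0571, adjusted 0.0714 over 5 pairs of genes tested). On CPM per kilobase it was -1.33, with an adjusted p of 0.0357 in the same exact test. Lamc1 made up 99.8% or more of the gamma chain TPM in every library.

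**Figure D2:**
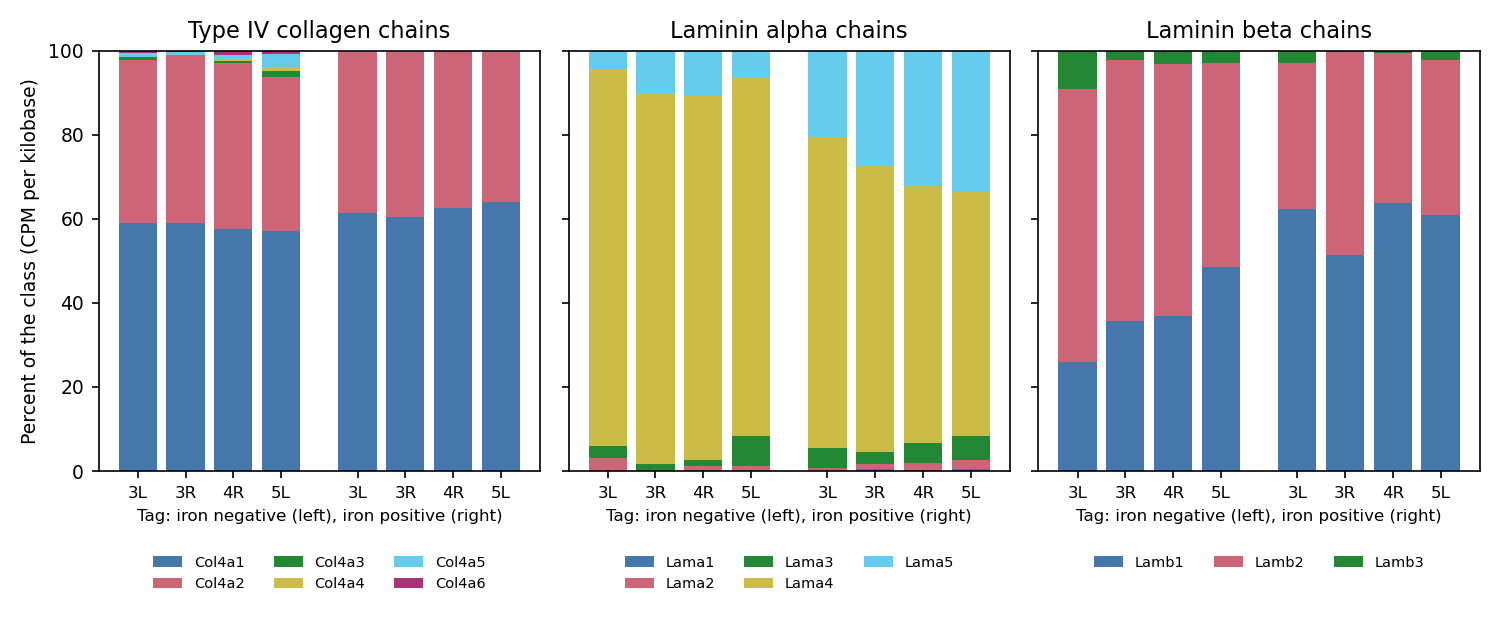
Share of each chain in its class, in percent of summed CPM per kilobase, for each library; the 4 bars on the left of each panel are iron negative and the 4 on the right iron positive. The Col4a1 share is 57.2–59.1% in the iron-negative and 60.4–63.9% in the iron-positive bars, Lama5 rises from 4.41–10.7% to 20.4–33.7%, and Lamb1 exceeds Lamb2 only in the iron-positive bars.

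The ratio of Col4a2 to Col4a1, whose products join in 1 trimer, did not separate the fractions. In TPM it was 0.349, 0.709, 0.645 and 0.548 in the iron-negative libraries and 0.617, 0.651, 0.598 and 0.566 in the iron-positive ones, a log2 difference of 0.16 (exact permutation test, n = 4 per group, p = 0.686). Per kilobase the difference had the other sign, -0.13 (adjusted p = 0.0571, exact permutation test). The narrow span of the iron-positive ratio stood beside an 11.6-fold span of the Col4a1 level over the same 4 libraries.

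Nidogens are the linker proteins between the laminin and collagen networks, and the pair differed. Nid1 was at 2.87, 12.9, 8.60 and 4.13 CPM in the iron-negative libraries and 23.3, 195, 85.9 and 23.6 CPM in the iron-positive ones, with no overlap (log2 fold change 3.53 ± 0.81, edgeR adjusted p = 0.0277). Nid2 was at 35.4, 34.3, 36.7 and 40.3 CPM against 34.8, 118, 72.0 and 41.0 CPM. Its iron-positive levels in 3L and 5L lay within or next to the iron-negative range, and it was not called (0.86 ± 0.35, edgeR adjusted p = 0.133). The ratio of Nid2 to Nid1 TPM was 23.4, 4.23, 8.15 and 18.5 in the iron-negative libraries and 2.74, 1.11, 1.73 and 3.57 in the iron-positive ones. The log2 ratio differed by -2.41, the groups did not overlap, and the exact permutation test gave its smallest possible p for n = 4 per group, 0.0286 (adjusted 0.0476). Over both fractions the retained-intron Nid2-202, of 543 bases, held 27.5% to 41.7% of Nid2 TPM. On CPM per kilobase, a scale added after the data were seen, the difference was -2.5.

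Perlecan and agrin, the heparan sulfate proteoglycans, split in a like way. Perlecan's gene Hspg2 was at 6.14, 32.9, 19.3 and 11.2 CPM in the iron-negative libraries and at 53.3, 509, 228 and 69.0 CPM in the iron-positive ones, all above the first group (log2 fold change 3.63 ± 0.83, edgeR adjusted p = 0.0273). Agrn was at 18.2, 25.6, 24.2 and 21.4 CPM against 23.3, 83.2, 54.5 and 31.2 CPM, so that iron-positive 3L fell inside the iron-negative range. Agrn was not called (log2 fold change 1.10 ± 0.36, edgeR adjusted p = 0.077), but was with the tag as a replicate block (0.0228). The log2 ratio of Hspg2 to Agrn TPM was higher by 2.25 in the iron-positive libraries (exact permutation test, n = 4 per group, p = 0.0286, adjusted 0.0476): the ratio was 0.188 to 0.773 in the first group and 1.27 to 4.06 in the second. Over both fractions the non-coding Hspg2-202, of 820 bases, held 32.6% to 65.0% of Hspg2 TPM. The retained-intron Agrn-205 held 26.7% to 39.8% of Agrn TPM. On CPM per kilobase, the scale added after the data were seen, the difference was 2.37.

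Types XV and XVIII are the related collagens whose C-terminal pieces are the angiogenesis inhibitors restin and endostatin. Col18a1, the source of endostatin, was at 8.62, 28.7, 17.8 and 9.83 CPM in the iron-negative libraries and 69.2, 512, 237 and 61.5 CPM in the iron-positive ones (log2 fold change 3.76 ± 0.78, edgeR adjusted p = 0.0209). Its transcript from the upstream start, Col18a1-202, held 95.6% to 98.4% of the counts in the iron-negative libraries and 98.7% to 99.5% in the iron-positive ones. Col15a1 was at 34.7, 35.8, 33.1 and 30.3 CPM and at 33.8, 181, 91.5 and 38.1 CPM. The iron-positive 3L library was thus within the iron-negative range, and Col15a1 was not called (log2 fold change 1.36 ± 0.49, edgeR adjusted p = 0.101).

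The log2 ratio of Col18a1 to Col15a1 TPM was higher by 2.30 in the iron-positive libraries (exact permutation test, n = 4 per group, p = 0.0286, adjusted 0.0476). Col15a1 had the higher TPM in every iron-negative library, with ratios of 0.267 to 0.818, and Col18a1 in every iron-positive one, with ratios of 1.47 to 2.94. Col8a1, a short network-forming collagen of vessel walls, rose from 2.31 ± 0.991 CPM (SD, n = 4) to 15.4 ± 15.7 CPM (log2 fold change 2.74 ± 0.71, edgeR adjusted p = 0.0378). Pxdn, the peroxidase that forms the sulfilimine crosslinks of collagen IV, rose from 5.74 ± 3.75 to 68.2 ± 69.5 CPM (3.58 ± 0.80, edgeR adjusted p = 0.026).

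The 2 receptors in the set went apart. Bcam, the Lutheran glycoprotein that binds laminin alpha 5, was at 0.133, 0.390, 0.224 and 0.0435 CPM in the iron-negative libraries and 2.64, 24.5, 14.4 and 4.31 CPM in the iron-positive ones. Its fold change of 57.5 (log2 5.85 ± 0.90, edgeR adjusted p = 0.0173) was next to that of Lama5, although the iron-negative level rests on few counts. Dag1, dystroglycan, was at 71.9, 74.3, 72.7 and 65.7 CPM against 66.7, 91.5, 77.6 and 68.2 CPM, with groups that overlapped in part, iron-positive 3R and 4R lying above every iron-negative library (log2 fold change 0.10 ± 0.10, edgeR adjusted p = 0.566). The sign of the small Dag1 difference turned without iron-positive 3R, at -0.01, and in tags 3L and 5L alone, at -0.03.

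Of the smaller matrix proteins, Egfl7, secreted by endothelial cells, was at 0.398, 2.92, 1.30 and 0.696 CPM in the iron-negative libraries and 2.89, 79.2, 62.4 and 16.8 CPM in the iron-positive ones. It was called higher (log2 fold change 4.94 ± 1.05, edgeR adjusted p = 0.0222), although iron-positive 3L was just under iron-negative 3R. Ntn4, a netrin that binds laminin gamma chains, went from 1.30 ± 0.651 CPM (SD, n = 4) to 5.48 ± 5.21 CPM and was called only with the replicate block (edgeR adjusted p = 0.0758, 0.0065 with the block). Npnt, the integrin ligand nephronectin, was not called in either fit (log2 fold change 1.24 ± 0.59, edgeR adjusted p = 0.192 and 0.0901). The Fraser complex genes Fras1 and Frem1, which join epidermis to dermis, were not tested, with 0 and 2 counts over the iron-negative and 3 and 19 over the iron-positive libraries.

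**Figure D3:**
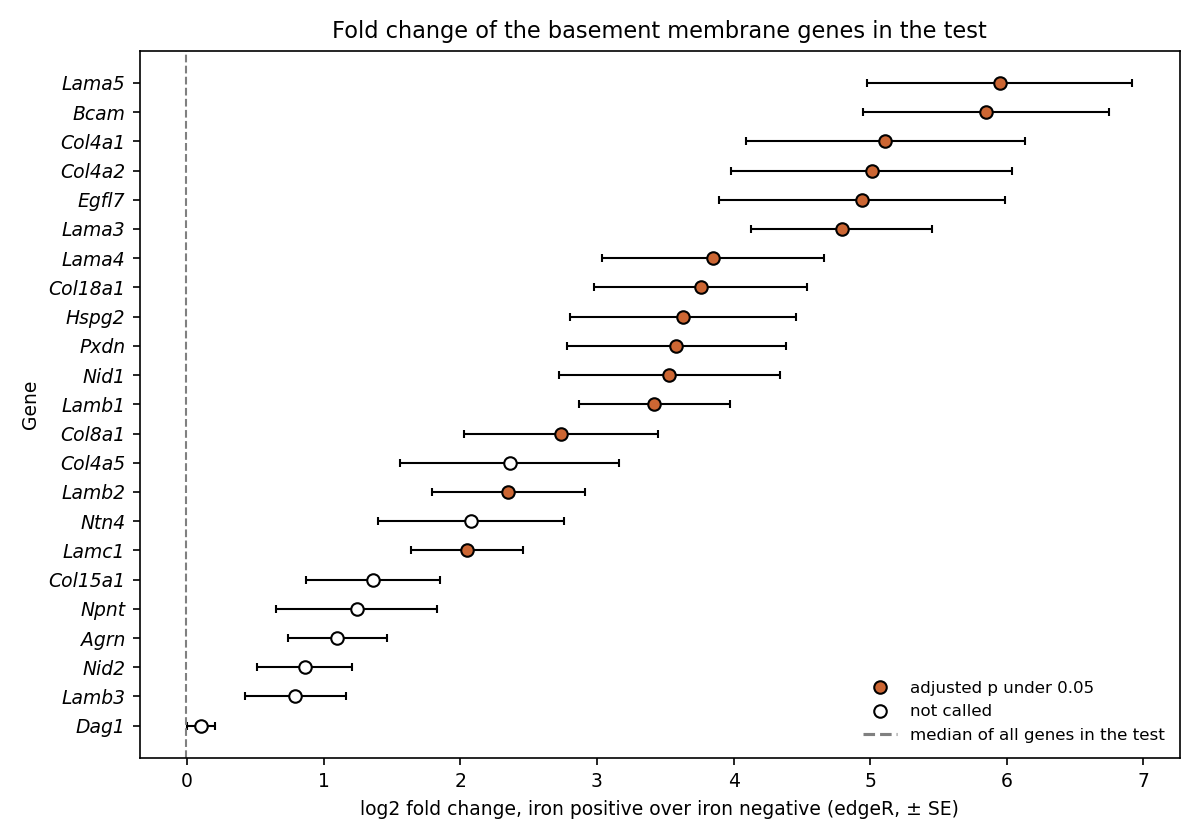
edgeR log2 fold change, iron positive over iron negative, with its SE for the 23 genes in the test; filled points were called at an adjusted p under 0.05 and the dashed line is the median of all genes tested. All 23 points lie right of the line, from Dag1 at 0.10 to Lama5 at 5.95.

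By level per length, the order changed between the fractions. In the iron-negative libraries Dag1 was the highest of the 31 genes at 12.6 ± 0.669 CPM per kilobase (SD, n = 4), followed by Nid2 at 7.52 ± 0.543, Col15a1 at 6.47 ± 0.462, Lamc1 at 3.81 ± 0.640 and Col4a1 at 3.45 ± 2.94. Neighbours in that order differed by more than these SDs, except Lamc1 and Col4a1. In the iron-positive libraries Col4a1 led at 119 ± 117 CPM per kilobase, followed by Col4a2 at 74.4 ± 76.6, Col18a1 at 39.3 ± 37.7 and Egfl7 at 29.0 ± 26.1. No neighbours in that order differed by more than their SDs, which measure the spread between libraries and were about as large as the means. Within every iron-positive library, though, Col4a1 was above Col4a2 and Col4a2 above Col18a1. Egfl7 was below Col18a1 in 3L and 3R and above it in 4R and 5L. Dag1 was at 13.4 ± 2.01 CPM per kilobase there, behind 9 of the other genes.

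The iron-positive libraries ranked alike for almost every gene. Of the 23 genes in the test, 22 were highest in iron-positive 3R, where 36.0% of all genes tested and 66.2% of the 1133 genes called higher were highest. In 19 of the 23, iron-positive 3L was the lowest, as in 28.7% of all genes and 49.2% of those called higher. The iron-negative library of tag 3R was also the highest of its fraction for 18 of the 23, against 23.6% of all genes tested and 47.6% of those called higher. The within-tag ratio spanned less than the iron-positive level in 20 of the 23 genes, and less than the iron-negative level in 12. The Col4a1 level spanned 7.18-fold in the iron-negative and 11.6-fold in the iron-positive libraries, but its within-tag ratio was 16.8, 37.0, 36.4 and 32.2 in the order of the tags above.

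Lama5 had the most even within-tag ratio of the 15 genes called higher, at 36.5, 64.0, 60.5 and 68.2. Egfl7 and Lama3 had less even ratios, at 7.27, 27.1, 48.1 and 24.2 for Egfl7 and 12.8, 37.4, 61.7 and 10.6 for Lama3. The iron-negative libraries held only 5, 32, 23 and 6 estimated counts of Lama5 and 3, 5, 3 and 6 of Lama3. Whether ratios on so few counts differ in evenness beyond counting error was not tested. The median ratio over the 23 genes was 15.1 for tag 3R and 9.99 for 4R, above the 6.52 of 3L and the 3.69 of 5L. Nid2, Col15a1 and Dag1 were under 1 in tag 3L, at 0.985, 0.973 and 0.928, and Npnt in 5L, at 0.961. No gene of the 23 was under 1 in tags 3R or 4R.

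**Figure D4:**
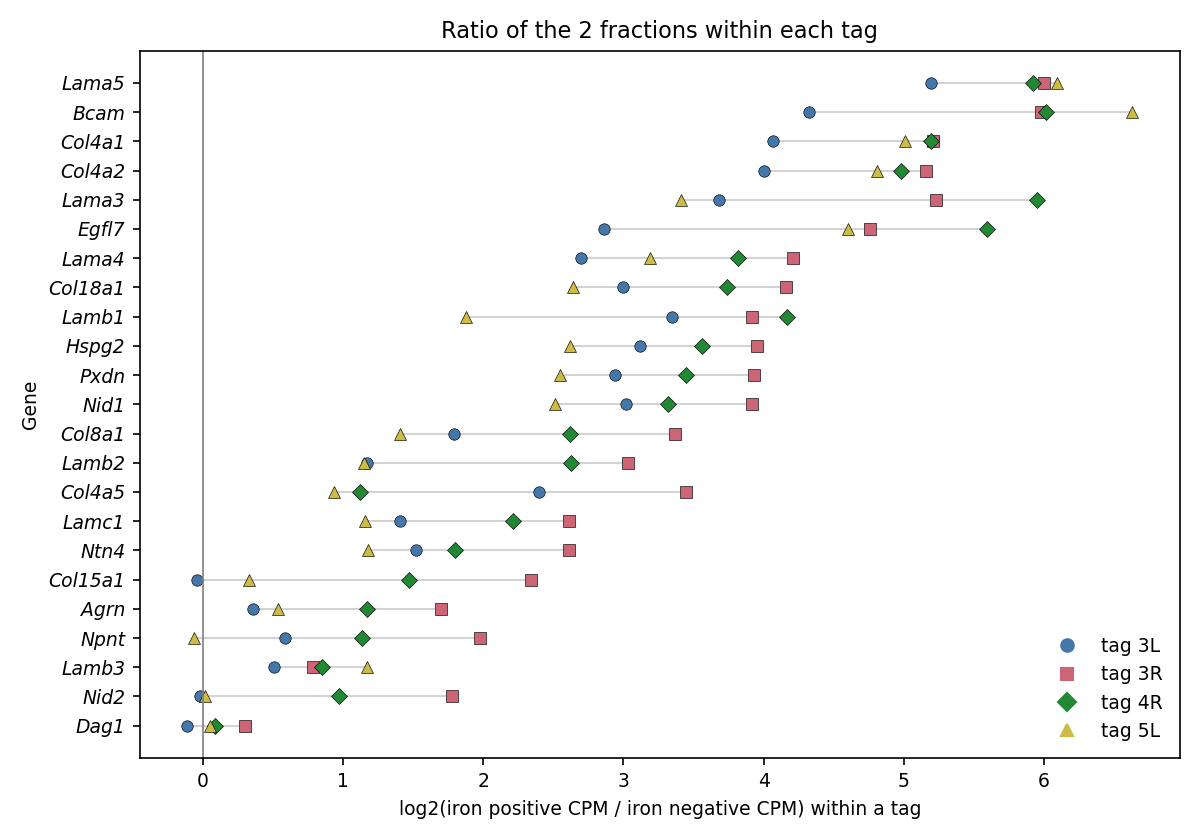
log2 ratio of iron-positive to iron-negative CPM within each tag for the 23 genes in the test, ordered by their mean; each point is 1 tag. Nearly all points lie right of 0, and Nid2, Col15a1, Npnt and Dag1 each have a tag at or below 0.

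With the tag as a replicate block, edgeR called 18 of the 23 genes higher, where 12.8% of all genes were called higher, and 0 lower, where 9.39% were. The added calls were Agrn, Col4a5 and Ntn4. A simpler count, of genes whose 4 iron-positive libraries all lay above the 4 iron-negative ones, gave 15 of 23 against 11.2% of all genes tested. It left out Egfl7 and took in Col4a5. In the libraries of tags 3L and 5L alone, which hold the lowest iron-positive level of 22 of the 23 genes, 11 of 23 were still called higher against 2.39% of all genes. The edgeR calls did not hold with fewer iron-negative libraries: without any 1 of the 4, edgeR called 0 of the genes (smallest adjusted p 0.0518 to 0.063, and 19 to 21 genes at an unadjusted p under 0.05). Of all genes it then called 0% to 0.191% higher, and DESeq2 called 19 to 20 of the basement membrane genes and 7.05% to 7.76% of all genes higher. The Col4a1 log2 fold change was 4.79 to 5.79 in these fits. Without iron-positive 4R edgeR called 5 higher beside 2.96% of all genes, without 3L 20 beside 10.3%, without 5L 16 beside 11%, and without 3R 15 beside 8.48%.

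Markers of vessel and connective tissue cells moved with these genes. All 10 endothelial markers were called higher, where 8.49% of all genes tested were. Their summed level was 34.9 to 66.1 CPM in the iron-negative libraries and 163, 1300, 755 and 196 CPM in the iron-positive ones. Pericyte and smooth muscle markers were called higher in 7 of 10 (23.1 to 46.5 CPM summed, against 68.6 to 507 CPM). Fibroblast markers were called higher in 5 of 10 (156 to 391 CPM summed, against 568 to 4620 CPM). With the replicate block 9 fibroblast markers were called higher, beside 12.8% of all genes. All 8 skeletal muscle markers were called higher, from 3.04–5.26 to 19.9–61.7 CPM summed. Markers low in the flowthrough, such as Tek, Cldn5 and Myh4, passed the filter on low counts only through the eluate. These counts of calls therefore describe the listed markers alone. The endothelial, pericyte and fibroblast sums were highest in iron-positive 3R and next in 4R, the order of the basement membrane genes. The tumours were fibrosarcomas, and the fibroblast list holds no gene chosen to mark tumour cells, so its sum may include them. The part of any of these cells in the results above was not tested.

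Macrophage markers were the most abundant in both fractions, at 29200 to 31700 CPM summed over 12 genes in the iron-negative and 22100 to 28800 CPM in the iron-positive libraries. Of the 12, 5 were called lower in the iron-positive fraction and none higher, beside 5.21% and 8.49% of all genes. With the replicate block 9 were called lower, beside 9.39% of all genes, and none higher. Markers of epithelial, Schwann and fat cells were uneven in level, and their part in the results above was not tested either. The epithelial keratin Krt5, the Schwann cell factor Sox10 and the fat cell hormones Adipoq and Lep were at 0 in all 8 libraries. Only 1 of 8 epithelial, 2 of 6 Schwann and 0 of 4 adipocyte markers had enough counts for the test, and none of these was called. The summed levels overlapped between fractions, at 3.74 to 4.84 and 2.79 to 6.20 CPM for the epithelial list (mostly Cdh1), 38.6 to 46.7 and 34.7 to 45.5 CPM for the Schwann list (mostly Mbp) and at most 0.352 CPM for the adipocyte list.

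**Figure D5:**
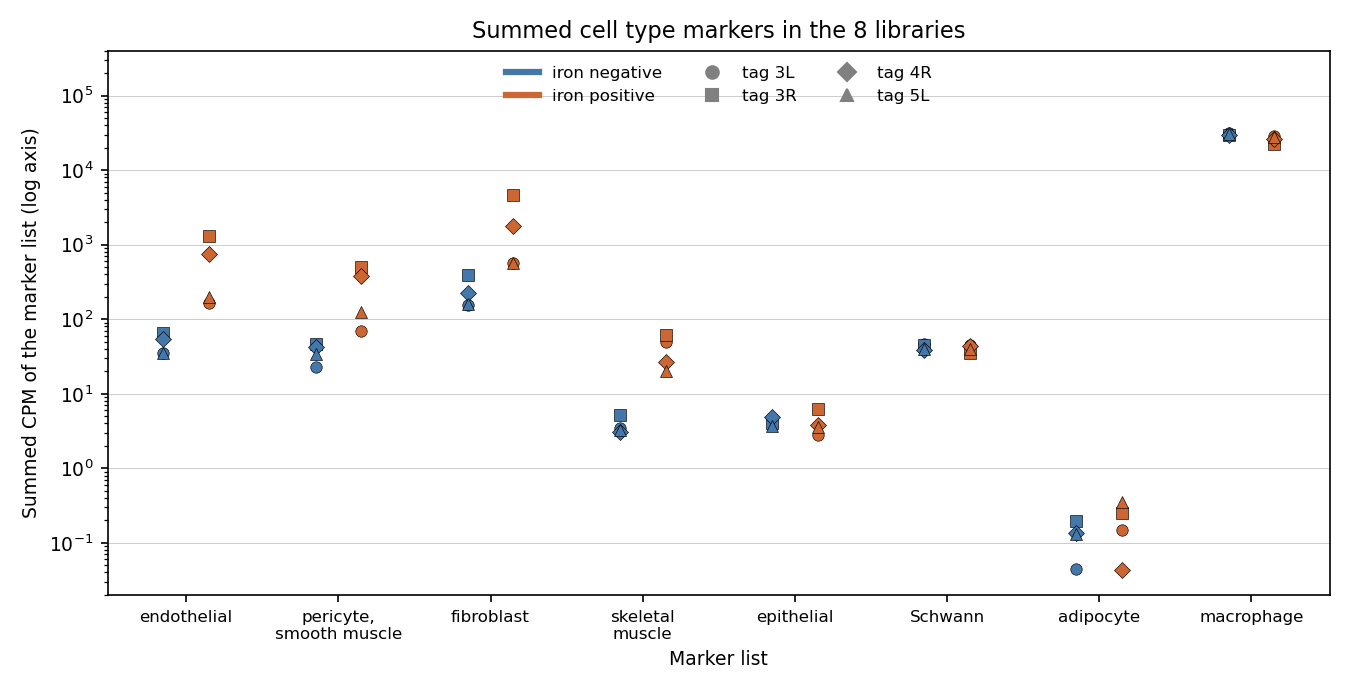
Summed CPM (log axis) of 8 lists of cell type markers in the iron-negative (blue) and iron-positive (orange) libraries; marker shapes are the tags. Endothelial, pericyte, fibroblast and skeletal muscle sums are higher in every iron-positive library than in any iron-negative one, while the epithelial, Schwann and adipocyte sums overlap.

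Other genes of basement membrane assembly and turnover were counted from 6 lists of 70 genes. Among 14 further basement membrane components 6 were in the test, with a median log2 fold change of 3.28. Of the 6, 3 were called higher and 0 lower, beside 8.49% and 5.21% of all genes. These were Sparcl1, a SPARC relative of vessels (log2 fold change 5.26 ± 1.02, edgeR adjusted p = 0.0185), Tinagl1, a matricellular protein (4.99 ± 0.90, adjusted p = 0.0179), and Vwa1, a perlecan-binding protein (4.88 ± 0.94, adjusted p = 0.0185). Sparcl1 alone went from 0.486, 6.97, 3.76 and 1.04 CPM to 25.1, 268, 136 and 34.2 CPM. The replicate block added Efemp1 as higher (edgeR adjusted p = 0.0173 with the block).

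Of the 12 collagen folding and crosslinking genes, 5 were called higher and 0 lower, beside 8.49% and 5.21% of all genes. Their median log2 fold change was 0.87. The replicate block added Loxl1 as higher (edgeR adjusted p = 0.00444) and Colgalt1 as lower (-0.18 on the log2 scale, adjusted p = 0.0494). The 5 genes called without the block were the collagen chaperone Serpinh1 (3.12 ± 0.69, edgeR adjusted p = 0.0256), the prolyl hydroxylase P4ha2 (1.55 ± 0.39, adjusted p = 0.0367), the lysyl oxidases Loxl2 (2.56 ± 0.69, adjusted p = 0.0426) and Lox, and the lysyl hydroxylase Plod2. Genes of the same steps with high levels in both fractions were near 0 on the log2 scale: the isoenzyme P4ha1 was at -0.04 ± 0.12 and P4hb, the shared hydroxylase subunit, at 0.05 ± 0.09.

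Of 13 genes of heparan sulfate synthesis and trimming, 2 were called higher and 1 lower, beside 8.49% and 5.21% of all genes, with a median log2 fold change of -0.01. The chain-building Ext1, Ext2, Ndst1 and Hs2st1 were at 0.36, -0.16, -0.07 and -0.01 on the log2 scale and not called. The 3 called genes act on finished chains: the sulfatase Sulf1 (5.15 ± 0.78, edgeR adjusted p = 0.0173), the heparanase Hpse (1.22 ± 0.28, adjusted p = 0.028) and the sulfatase Sulf2 (-0.59 ± 0.15, adjusted p = 0.0379). Sulf1 was at 0.0884 to 0.224 CPM in the iron-negative libraries and 1.5, 11.6, 6.23 and 2.29 CPM in the iron-positive ones. Sulf2, far more abundant, went from 247, 236, 209 and 215 CPM to 173, 157, 104 and 168 CPM, and lost its call when libraries were scaled on macrophage genes (-0.39, adjusted p = 0.135). That scaling raised the median log2 fold change of all genes to 0.201 and left 15 basement membrane genes called higher, beside 12.4% of all genes. Of all calls 62.0% were higher with TMM, 76.5% with library totals and 98.3% with macrophage scaling.

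On the receptor side, 12 of 13 genes of the dystroglycan complex and its glycosylation were in the test. Of these, 3 were called higher and 0 lower, beside 8.49% and 5.21% of all genes (median 0.48). They were Sspn, sarcospan (3.0 ± 0.65, edgeR adjusted p = 0.0238), Utrn, utrophin (0.96 ± 0.21, adjusted p = 0.0249), and Sgce, epsilon-sarcoglycan (2.42 ± 0.66, adjusted p = 0.0451). The replicate block added Dmd as higher (edgeR adjusted p = 0.0126 with the block). Pomt1 and Pomgnt1, enzymes that build the laminin-binding glycan, were at -0.13 and 0.14 on the log2 scale and not called.

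Laminin- and collagen IV-binding integrins and discoidin receptors had 5 of 9 genes called higher and 0 lower, beside 8.49% and 5.21% of all genes (median 2.10). With the replicate block 7 were called higher, adding Ddr1 and Ddr2, and 1 lower, beside 12.8% and 9.39% of all genes. The 1 called lower was the abundant laminin receptor subunit Itga6 (log2 fold change -0.37, edgeR adjusted p = 0.0373 with the block). The collagen-binding Itga1 went from 0.398, 1.80, 1.12 and 0.348 CPM to 7.83, 40.4, 31.4 and 7.79 CPM (4.58 ± 0.77, edgeR adjusted p = 0.0173). Itga2 (3.92 ± 0.82, adjusted p = 0.0217) and the laminin receptor subunits Itgb4 (3.74 ± 0.77, adjusted p = 0.0209), Itga3 and Itga7 were also called. Itgb1, the beta subunit that most of them share, was not (0.09 ± 0.10, adjusted p = 0.603), at 483 to 561 CPM in the flowthrough and 476 to 639 CPM in the eluate.

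Among 9 basement membrane proteases and inhibitors 5 were called higher and 0 lower, beside 8.49% and 5.21% of all genes (median 1.17). The library order of some differed from that of the matrix genes. The collagen IV-degrading Mmp9 was at 39.4, 23.3, 41.3 and 20.2 CPM in the iron-negative libraries and 456, 140, 555 and 126 CPM in the iron-positive ones (3.36 ± 0.55, edgeR adjusted p = 0.0173), so that 3L and 4R, not 3R, were highest. The cathepsin Ctsl had the same 2 libraries on top, at 1700 and 1660 CPM against 604 and 823 CPM in 3R and 5L. Adamts1, a versican-cleaving protease, instead followed the matrix genes, at 41.4, 305, 260 and 80.7 CPM in the iron-positive libraries (4.84 ± 0.78, adjusted p = 0.0173), and the inhibitors Timp1 (2.24 ± 0.39, adjusted p = 0.0176) and Timp3 were called higher too.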

How the data were processed

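RNA-seq of 4 iron-positive and 4 iron-negative libraries was deposited as 1 table per library with, per the file headers, transcript lengths, estimated counts and TPM. Per the submitters' processing notes, the authors used kallisto 0.46.2 and the build mm10. Read trimming and strand settings were not given in the sources used here. The deposited estimated counts and the deposited TPM were summed per gene through the GENCODE mouse release 21 annotation of GRCm38. Of 119414 transcripts 116728 matched, and 0.888% to 0.961% of counts lay on the others. Counts were rounded and tested with edgeR 4.0.16 (filterByExpr, TMM, quasi-likelihood test, fraction as the only term) in R 4.3.3. The script was tested on simulated data. DESeq2 1.42.0 and limma 3.58.1 were alternatives. Ratios of chains were tested on TPM with exact two-sided permutation tests, where both genes had at least 10 counts in every library.

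Deviations from the group means correlated between same-tag libraries at 0.53 (3L), 0.521 (3R), 0.27 (4R) and 0.304 (5L), at most 0.257 otherwise, so the tags were taken to pair the libraries. No libraries agreed within sampling noise (chi-square per gene 9.38 to 112 within fractions). All 31 genes are accounted for. In the other lists the 3 called genes with the smallest adjusted p are named, and some others were added after their values were seen. The genes and lists were chosen with earlier results of these data known. No protein sequences were used here.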

Additional observations from a re-analysis of the deposited data

Results flagged for a closer look

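Of 46 groups of 4 libraries checked, 2 for each of the 23 genes in the test, 1 had a library far from the others. Col4a5 in iron-positive 3R was at 5.85 CPM, and the other iron-positive libraries were at 0.698 to 1.26 CPM. The gap to the nearest library was 0.89 of the group's range, above Dixon's critical value for 4 libraries. Chance alone marks about 1 in 20 such groups.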

How the results depend on the processing

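The basement membrane genes called higher numbered 15 with TMM, RLE, library totals and macrophage scaling, beside 8.49%, 8.54%, 8.78% and 12.4% of all genes. They numbered 16 without the low-count filter or with a mean of at least 1 CPM, beside 5.99% and 9.07% of all genes. With the replicate block they numbered 18 (12.8% of all genes), with limma on log2(TPM + 0.1) 12 (5.29%) and with DESeq2 21 (8.95%). They numbered 2 with limma voom (14 at an unadjusted p under 0.05) and 7 with limma on log2(TPM + 1), which called 1.41% and 3.1% of all genes higher. Leaving out 1 library gave 0 to 20 with edgeR and 12 to 23 with DESeq2, an alternative chosen after seeing the data. None was called lower in any of these settings. With 4 pairs a sign-flip test cannot go below 0.125, so the paired (replicate block) test of the ratios Nid2/Nid1 (-2.41), Col18a1/Col15a1 (2.30) and Hspg2/Agrn (2.25) gave an adjusted p of 0.156. Without 1 library these ratio differences ran from -2.87 to -2.05, 2.08 to 2.61 and 1.80 to 2.53, the smallest possible exact p then being 0.0571, and that of Col4a2/Col4a1 from -0.05 to 0.29. The Col4a2/Col4a1 difference was -0.13 and the Lamb2/Lamb1 difference -1.33 (past the threshold) from estimated counts or from CPM per kilobase, the second scale added after seeing the data; the cause was not tested. In edgeR the replicate block changed the calls of Agrn, Col4a5 and Ntn4 among the 23 genes, and no other. Genes under about 10 counts per library, such as Lama1 and Lamc3, are limited by depth.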
